A study of Homo sapiens with 14 samples.

Results

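The proteasome genes were described across 2 RNA-seq experiments in UM1, an established cell line of human tongue squamous cell carcinoma. Genes were taken by name, as those whose symbol is PSMA to PSMG followed by a number, together with POMP. This gave 47 genes of the 17423 listed in either table of expression values, of which 43 were listed in both. The knockdown table listed 43 of them among 16237 genes, and 47 stood among the 16137 genes of the overexpression table. In the first experiment PRMT5, which symmetrically dimethylates arginine in proteins, was targeted by a hairpin in UM1 cells (shPRMT5, 2 libraries), and UM1 cells with a hairpin against GFP served as controls (shGFP, 2 libraries). The second compared UM1 cells overexpressing ΔNp63α, the form of the transcription factor p63 that prevails in basal squamous epithelium, in 3 libraries, with UM1 cells carrying the empty vector in 3 libraries. The labels name no second hairpin, clone, promoter, dose or time of treatment. CUT&Tag libraries of the same line, 4 samples, were not analysed here. Titles call the replicates biological without naming separate cultures. The p-values therefore reflect spread among these libraries only, and that spread may be technical.

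The proteasome degrades proteins that carry ubiquitin chains. Its core is a barrel of stacked rings: alpha subunits (PSMA) form the outer rings and the gate, and beta subunits (PSMB) form the inner rings, in which PSMB5, PSMB6 and PSMB7 carry the peptide-cutting sites. After interferon, PSMB8, PSMB9 and PSMB10 take the places of PSMB5, PSMB6 and PSMB7 and make the immunoproteasome, which cuts many of the peptides that MHC class I shows on epithelial cells. A regulatory particle caps the core, with a ring of ATPases (PSMC) that unfolds and feeds the substrate and non-ATPase subunits (PSMD) that bind, hold and deubiquitinate it. Dedicated chaperones (PSMG1 to PSMG4, POMP, PSMD5, PSMD9 and PSMD10) assemble core and cap, and alternative activators (PSME1 to PSME4) or an inhibitor (PSMF1) can bind the core instead. Transcription of the subunits as a group is known to depend on NFE2L1, which binds antioxidant response elements, whereas the inducible beta subunits are known for interferon-responsive elements.

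The promoter windows below are shown because they contrast the inducible beta subunits with the constitutive PSMB5 and with PSMA3 and PSMD12, the pair of genes called higher in both experiments. Each runs 5′ to 3′ on the strand of its gene, from 250 bases before the start of the gene to 50 after it, as given by RefSeq on build GRCh38.p14. Capitals mark every match, on either strand, to 1 of 5 motifs: the antioxidant response element core TGACNNNGC, the NF-Y box CCAAT, the gamma-activated site TTCNNNGAA, the interferon-stimulated response element core, which is TTTC, any 2 bases and TTTC, and the ETS motif CCGGAAG. No matches overlap each other in these windows. The windows lie at chr6:32843998-32844297 on the minus strand for PSMB8, chr6:32853942-32854241 on the plus strand for PSMB9, chr16:67936801-67937100 on the minus strand for PSMB10, chr14:23034851-23035150 on the minus strand for PSMB5, chr14:58244593-58244892 on the plus strand for PSMA3 and chr17:67366528-67366827 on the minus strand for PSMD12. RefSeq holds a further window for PSMB8 and for PSMB5, so those shown are named window 1.
PSMB8 window 1: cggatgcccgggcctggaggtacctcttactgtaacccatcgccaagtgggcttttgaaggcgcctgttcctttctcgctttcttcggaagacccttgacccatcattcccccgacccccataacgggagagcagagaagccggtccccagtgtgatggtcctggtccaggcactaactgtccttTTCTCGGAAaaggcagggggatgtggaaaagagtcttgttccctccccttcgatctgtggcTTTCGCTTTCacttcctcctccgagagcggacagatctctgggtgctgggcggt
PSMB9: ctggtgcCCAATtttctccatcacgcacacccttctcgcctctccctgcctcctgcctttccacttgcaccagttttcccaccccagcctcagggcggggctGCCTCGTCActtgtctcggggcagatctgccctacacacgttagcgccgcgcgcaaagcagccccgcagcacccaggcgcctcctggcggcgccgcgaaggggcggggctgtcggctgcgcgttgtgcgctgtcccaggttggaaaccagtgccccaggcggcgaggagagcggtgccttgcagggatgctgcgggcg
PSMB10: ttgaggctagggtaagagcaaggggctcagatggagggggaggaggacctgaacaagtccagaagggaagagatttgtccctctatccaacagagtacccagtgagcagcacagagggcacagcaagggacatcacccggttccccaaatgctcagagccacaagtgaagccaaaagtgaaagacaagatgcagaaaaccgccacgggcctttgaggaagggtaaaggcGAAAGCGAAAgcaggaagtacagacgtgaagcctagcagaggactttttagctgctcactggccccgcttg
PSMB5 window 1: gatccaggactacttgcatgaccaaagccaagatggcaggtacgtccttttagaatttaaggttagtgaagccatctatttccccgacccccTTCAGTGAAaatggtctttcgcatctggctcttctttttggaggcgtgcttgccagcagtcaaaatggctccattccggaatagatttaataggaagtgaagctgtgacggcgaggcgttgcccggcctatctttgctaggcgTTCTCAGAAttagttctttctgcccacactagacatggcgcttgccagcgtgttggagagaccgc
PSMA3: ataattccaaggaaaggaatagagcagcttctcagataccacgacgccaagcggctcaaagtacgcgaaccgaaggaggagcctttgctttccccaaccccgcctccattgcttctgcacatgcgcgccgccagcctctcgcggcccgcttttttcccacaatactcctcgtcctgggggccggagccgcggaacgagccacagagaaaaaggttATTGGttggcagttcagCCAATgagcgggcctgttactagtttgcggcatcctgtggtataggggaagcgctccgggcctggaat
PSMD12: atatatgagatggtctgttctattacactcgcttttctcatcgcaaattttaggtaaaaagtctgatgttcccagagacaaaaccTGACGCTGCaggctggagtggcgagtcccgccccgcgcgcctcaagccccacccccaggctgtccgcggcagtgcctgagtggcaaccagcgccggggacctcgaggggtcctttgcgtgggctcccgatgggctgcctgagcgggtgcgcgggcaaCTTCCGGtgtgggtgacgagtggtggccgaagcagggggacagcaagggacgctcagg
In PSMB8 window 1 the capitals are a gamma-activated site and an interferon-stimulated core, and in PSMB10 an interferon-stimulated core read on the other strand. PSMB9 holds an NF-Y box and an antioxidant core, PSMB5 window 1 a pair of gamma-activated sites, PSMA3 a pair of NF-Y boxes on opposite strands, and PSMD12 an antioxidant core and an ETS motif. Windows were found for 43 of the proteasome gene names and for 27305 genes in all. The antioxidant core stood in a window of 15 of the 43 (34.9%), against 16.1% of all genes, and the ETS motif in 16 (37.2%), against 12.2%. An interferon-stimulated core stood in 7 (16.3%), against 4.38% of all genes; these were PSMA4, PSMB4, PSMB8, PSMB10, PSME1, PSME2 and PSMG4. A gamma-activated site was found in 8 (18.6%), against 9.38%, and the NF-Y box in 20 (46.5%), against 39.7%. These matches describe letters in the windows and show no binding.

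Expression was given as TPM, a transcript abundance scaled by gene length and to a fixed total in each library, so that levels of different genes can be compared within a library. TPM keeps no absolute depth, so no counting error can be given. PRMT5 stood at 143 and 126 TPM in shGFP replicates 1 and 2 and at 29.3 and 33.6 in the shPRMT5 libraries. TP63 stood at 138, 82.3 and 97.3 TPM in vector replicates 1 to 3 and at 152, 160.4 and 168 with ΔNp63α, and these values do not tell the introduced transcript from the cell's own. Libraries of a group correlated across genes at 0.976 to 0.989 (Pearson's r of log2 values). All 10 squamous epithelium markers were listed in both tables, and their summed level was 12947 to 14506 TPM with shGFP, 13698 to 13837 with shPRMT5, 8072 to 15008 with the vector and 18842 to 34235 with ΔNp63α. Endothelium markers summed to at most 1.39 TPM in any library, and fibroblast markers to at most 11.8 in the knockdown libraries. Of the fibroblast markers 4 of 6 were listed in each table. The squamous marker sum was above every vector library in all ΔNp63α libraries and lay mostly in KRT14 and KRT5 (log2 folds 1.94 and 1.45), while 4 of the 10 markers were called higher and 1, CDH1, lower (log2 fold -0.68, adjusted p = 0.0140 in limma). The fibroblast marker sum was 30.2 to 38.7 TPM with the vector and 43.1 to 62.0 with ΔNp63α, without overlap, and of its members LUM was called higher (log2 fold 0.97, adjusted p = 0.0307 in limma). The part of either sum in the results of that experiment was not tested. In bulk RNA, a change in the share of cells and a change per cell cannot be told apart.

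Together the 43 listed proteasome genes made up 1.31% and 1.42% of all TPM in the shGFP libraries and 1.45% and 1.42% in the shPRMT5 libraries. In the overexpression table the 47 genes made up 1.10%, 0.971% and 0.838% in vector replicates 1 to 3, and 1.19%, 1.13% and 1.13% with ΔNp63α. Vector replicate 3 was the lowest of the 6. The constitutive beta subunits held the largest part of this, 5925 to 6683 TPM in the knockdown libraries and 3912 to 5885 in the overexpression libraries. Mitochondrially encoded genes numbered 0 in the knockdown table and 16 in the overexpression table. Shares and sums therefore rest on unlike totals in the 2 tables. Individual subunits differed widely: PSMA7 averaged 1801 TPM and PSMA6 3.86 in the knockdown table, and in the overexpression table PSMB3 was the highest and PSMA2 the lowest. Mean levels below 10 TPM were found for 4 of 43 genes and for 4 of 47. The order of the subunits was nearly the same in both tables, with a Spearman correlation of 0.974 across 43 genes, a description over points that share libraries and gene lengths.

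**Figure D1:**
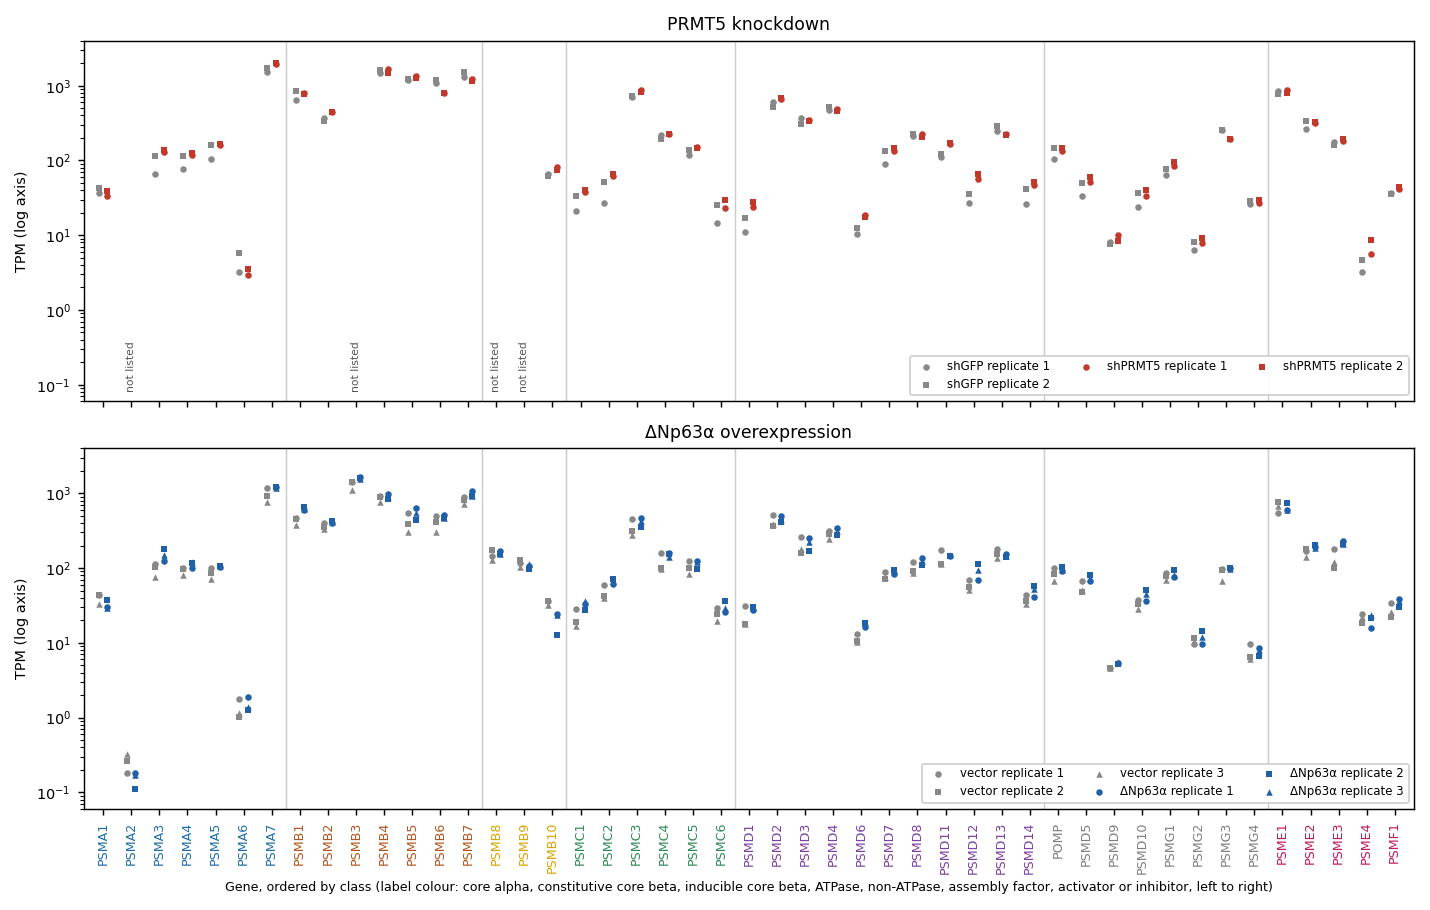
TPM of each proteasome gene (log axis) in every library, knockdown above and overexpression below, with genes ordered by class; each point is 1 library. PSMA7 and PSMB4 lie near the top in both panels, PSMA6 lies near the bottom, and PSMA2, PSMB3, PSMB8 and PSMB9 have points only in the lower panel.

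The core subunits PSMA2 and PSMA6, both alpha ring components, stood far below their partners. PSMA6 was measured at 3.20 and 5.72 TPM with shGFP and 2.97 and 3.53 with shPRMT5, and at 1.76, 1.01 and 1.17 with the vector and 1.90, 1.25 and 1.37 with ΔNp63α. PSMA2 was measured at 0.18, 0.26 and 0.32 TPM with the vector and 0.18, 0.11 and 0.17 with ΔNp63α, under the mean of 1 TPM needed to be tested. The core holds every alpha subunit in equal number, and PSMA7, another of them, stood at 1166, 923 and 774 TPM in the vector libraries. RefSeq names 3 pseudogenes of PSMA2 and 4 of PSMA6, and PSMA6 is overlapped by the readthrough gene PRORP-PSMA6; in all, 22 of the 49 names have a named pseudogene and 20 are overlapped by another gene. How the authors' counting treated reads shared with such copies was not given in the sources used here, and their part in these levels was not tested.

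With the hairpin against PRMT5, 5 of 43 proteasome genes were higher and 1 was lower. The higher genes were PSMD12, PSMD1, PSMC2, PSMA3 and PSMD11, which belong to the lid, the base, the ATPase ring and the alpha ring, and the lower gene was PSMB6, the constitutive caspase-like subunit. The share called higher was 11.6%, against 15.1% of all 12635 genes tested, and the share called lower 2.33%, against 3.48%, so neither stood above the background (limma, Benjamini-Hochberg adjusted p under 0.05 over all genes). An unadjusted p under 0.05 was found for 15 genes (34.9%), against 34.1% of all genes. Log2 folds were above 0 for 35 of the 43 genes (81.4%), against 71.9% of all genes, and their median was 0.24, beside 0.25 over all genes. After median-of-ratios rescaling 19 of the 43 were above 0, and after quantile normalization 31, beside 6447 and 6615 of all 12635 genes.

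In shGFP replicates 1 and 2 PSMB6 was measured at 1087 and 1179 TPM, and in the shPRMT5 libraries at 792 and 799. Both shPRMT5 libraries lay below both controls, and replicates of each group lay close to each other. The log2 fold was -0.51 (SE 0.13, adjusted p = 0.00863 in limma). PSMB7, the trypsin-like subunit, was measured at 1317 and 1508 TPM with shGFP and 1233 and 1166 with shPRMT5, without overlap, but its log2 fold of -0.23 (SE 0.13) was not called (adjusted p = 0.196 in limma). PSMB5, the chymotrypsin-like subunit, was measured at 1205 and 1213 TPM and 1353 and 1256, with a log2 fold of 0.11 (SE 0.13, adjusted p = 0.568 in limma, and -0.16 after median-of-ratios rescaling). PSMB10, the inducible counterpart of PSMB7, stood at 65.8 and 62.1 TPM with shGFP and 81.9 and 74.2 with shPRMT5. Its groups did not overlap, and its log2 fold of 0.28 (SE 0.17) was close to the median of all genes and not called (adjusted p = 0.257 in limma). Among the remaining constitutive beta subunits, PSMB2 had the highest log2 fold, 0.36 (SE 0.14, adjusted p = 0.0738 in limma), with 365 and 336 TPM against 451 and 446.

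In the alpha ring 1 of 6 tested genes was called higher (16.7%, against 15.1% of all genes). PSMA3 was measured at 66.0 and 114 TPM with shGFP and at 130.3 and 136 with shPRMT5, a log2 fold of 0.61 (SE 0.19, adjusted p = 0.0283 in limma). Most of that difference lay in shGFP replicate 1, while shGFP replicate 2 came close to the shPRMT5 libraries. The lowest fold of the ring was that of PSMA6, -0.33 (SE 0.29, adjusted p = 0.443 in limma). RefSeq places the antisense gene PSMA3-AS1 over PSMA3, and whether counting used strand was not given in the sources used here. PSMA7, the most abundant alpha subunit in this table, stood at 1533 and 1712 TPM and 1949 and 2009 and was not called (log2 fold 0.29, SE 0.12, adjusted p = 0.0966 in limma).

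Of the 6 ATPases, which unfold the substrate, 1 was called higher (16.7%, against 15.1% of all genes). All 6 had a log2 fold above 0, beside 71.9% of all genes, though 3 after median-of-ratios rescaling. PSMC2 was measured at 27.04 and 52.1 TPM with shGFP and 61.8 and 66.7 with shPRMT5, a log2 fold of 0.76 (SE 0.22, adjusted p = 0.0189 in limma). As for PSMA3, shGFP replicate 1 was far below shGFP replicate 2. PSMC4 had the lowest fold of the ring, at 219 and 195 TPM against 227 and 228 (log2 fold 0.14, SE 0.15, adjusted p = 0.536 in limma, and -0.13 after median-of-ratios rescaling).

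Of the 11 non-ATPase subunits tested, 3 were called higher (27.3%, against 15.1% of all genes). With no filter, median-of-ratios rescaling, quantile normalization or no trend, 1 of the 11 was called higher. The shares of all genes were 4.66%, 3.80%, 3.17% and 7.52% in that order. PSMD12, a scaffold subunit of the lid, was measured at 27.04 and 35.6 TPM with shGFP and 57.1 and 65.3 with shPRMT5. Both shPRMT5 libraries lay well above both controls, and the log2 fold of 0.95 (SE 0.20, adjusted p = 0.00173 in limma) was the largest of the 43 genes. PSMD1, the base subunit that carries docking sites for ubiquitin-binding partners, was measured at 11.2 and 16.9 TPM with shGFP and 23.9 and 28.1 with shPRMT5, a log2 fold of 0.87 (SE 0.23, adjusted p = 0.0106 in limma). PSMD11, a lid subunit that clamps lid, base and core together, was measured at 111 and 123 TPM and 164 and 172, a log2 fold of 0.52 (SE 0.16, adjusted p = 0.0250 in limma). Groups of both genes did not overlap. PSMD14, the deubiquitinase of the lid, at 25.8 and 41.5 TPM against 46.4 and 52.1, and PSMD6, at 10.3 and 12.5 against 18.5 and 17.6, lay just outside the threshold (adjusted p = 0.0546 and 0.0542 in limma). PSMD13, another lid subunit, had the lowest fold of the class, with 249.95 and 292 TPM against 224 and 219 (log2 fold -0.29, SE 0.15, adjusted p = 0.180 in limma).

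Neither the 8 assembly factors nor the 5 activators and inhibitors held a gene called by limma, and 2 and 1 of them had an unadjusted p under 0.05. PSMG3, which pairs with PSMG4 to place alpha subunits, was measured at 257 and 255 TPM with shGFP and 193 and 196 with shPRMT5 (log2 fold -0.39, SE 0.15, adjusted p = 0.0625 in limma). The highest fold of the assembly factors was that of PSMD5, a chaperone of the base, at 33.2 and 49.3 TPM against 51.1 and 59.7 (log2 fold 0.44, SE 0.20, adjusted p = 0.120 in limma). Groups of PSMG3 and PSMD5 did not overlap, while PSMG4 at 26.0 and 28.9 and 26.6 and 29.8 overlapped. POMP, which brings the beta ring together, was measured at 106 and 147 TPM and 134 and 145 (log2 fold 0.16, SE 0.17, adjusted p = 0.546 in limma, and -0.11 after median-of-ratios rescaling). The interferon-inducible activator subunits PSME1, at 837 and 766 TPM against 879 and 799, and PSME2, at 261 and 337 against 320.0 and 323, overlapped between the groups. PSME4, the nuclear activator that acts without ATP, was the least abundant of them, at 3.25 and 4.66 TPM against 5.66 and 8.60 (log2 fold 0.71, SE 0.28, adjusted p = 0.0722 in limma).

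Across the 43 genes, shGFP replicate 1 was the lowest library for 26 (60.5%), against 37.3% of all genes. Groups did not overlap for 24 genes that lay higher with shPRMT5 (55.8%, against 49.0% of all genes) and 4 that lay lower (9.3%, against 14%). Folds were lower in the more abundant genes, with a Spearman correlation between log2 fold and mean level of -0.465 across 43 genes, beside -0.132 across all 12635, both with the same libraries on both axes. The calls depended on single libraries: without shGFP replicate 1, 5 genes were higher and 4 lower, beside 15.7% and 4.02% of all genes, and the log2 folds of PSMA3 and PSMC2 were 0.22 and 0.30 and no longer called. With shGFP replicate 2 left out, 23 were called higher (53.5%, against 18.8% of all genes) and 2 lower (4.65%, against 5.64%). Leaving out shPRMT5 replicate 1 gave 2 and 0, beside 7.42% and 1.58% of all genes, and leaving out shPRMT5 replicate 2 gave 0 and 0, beside 1.36% and 1.23%, with an unadjusted limma p under 0.05 for 7 and 4 genes. Median-of-ratios rescaling moved the median of all genes from 0.25 to 0.01 and left 1 gene higher (PSMD12) and 3 lower (PSMB6, PSMD13 and PSMG3), beside 3.80% and 7.01% of all genes.

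**Figure D2:**
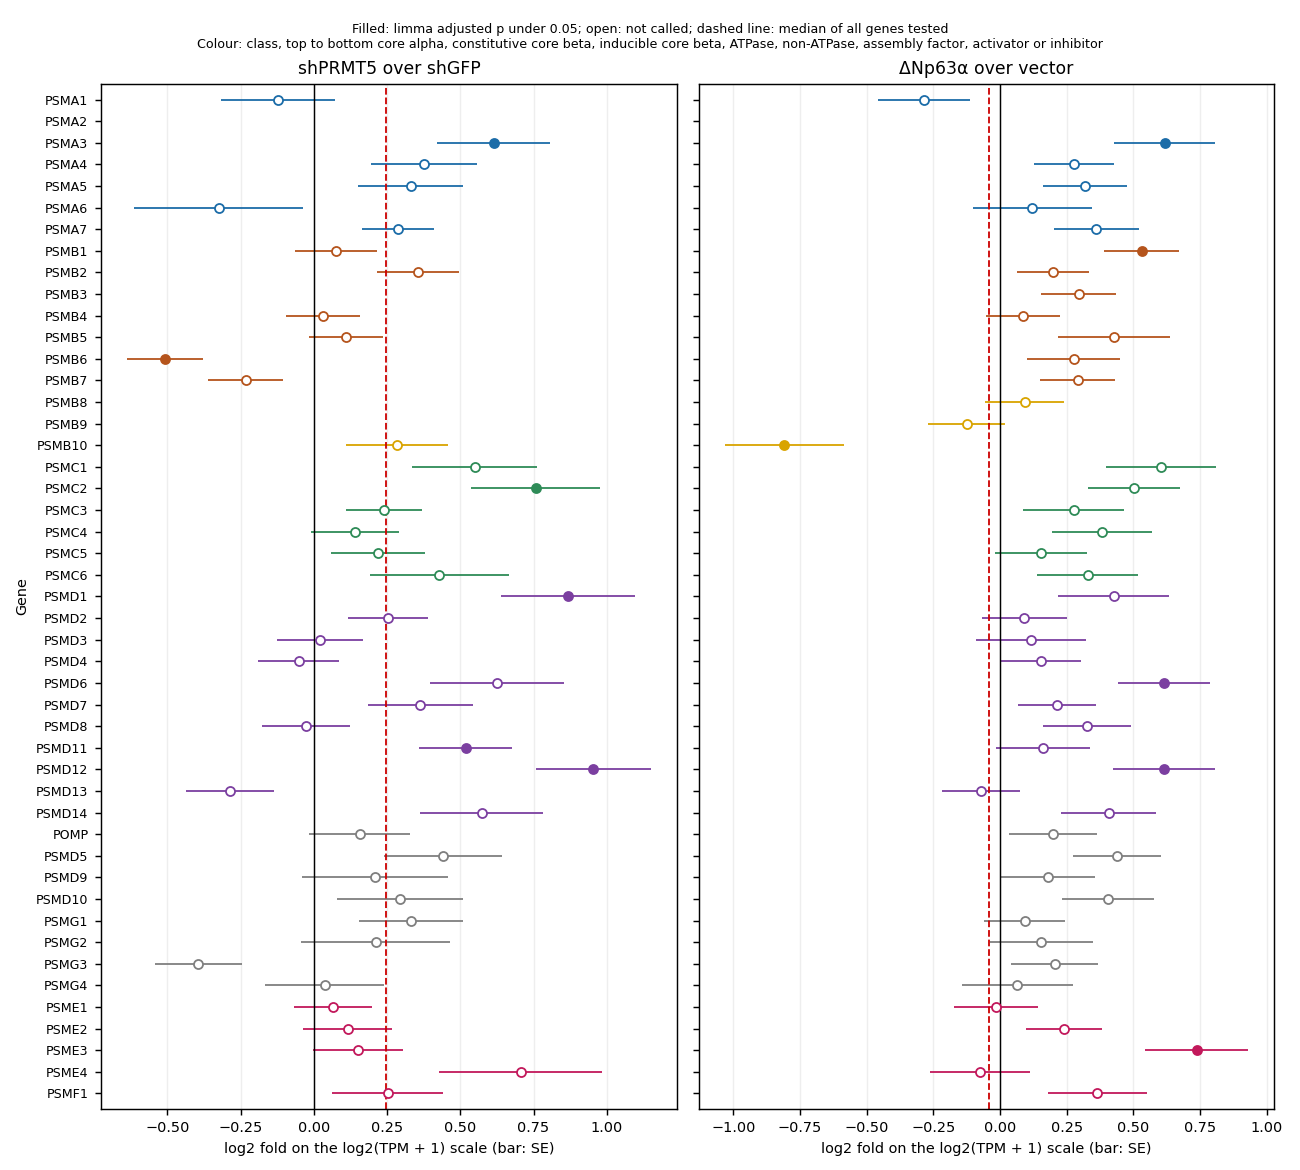
Log2 fold of each proteasome gene on the log2(TPM + 1) scale with its standard error, shPRMT5 over shGFP on the left and ΔNp63α over vector on the right; filled points are called by limma and the dashed line is the median of all genes tested. In the left panel the points scatter around the dashed line at 0.25, with PSMB6 at -0.51 and PSMD12 at 0.95; in the right panel most lie above the line at -0.04, with PSMB10 at -0.81.

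With ΔNp63α overexpression, 5 of 46 tested proteasome genes were higher and 1 was lower. The higher genes were PSME3, PSMA3, PSMD12, PSMD6 and PSMB1, from the nuclear activator, the alpha ring, the lid and the beta ring, and the lower gene was PSMB10, the inducible trypsin-like subunit. The share called higher was 10.9%, against 7.34% of all 13382 genes tested, and the share called lower 2.17%, against 14.1% (limma, Benjamini-Hochberg adjusted p under 0.05 over all genes). An unadjusted p under 0.05 was found for 12 genes (26.1%), against 35% of all genes. Log2 folds were above 0 for 40 of the 46 genes (87.0%), against 46.1% of all genes, and their median was 0.26, beside -0.04 over all genes. With the mitochondrially encoded genes left out, the median was 0.19, beside -0.11 over all genes. That setting gave 4 genes higher and 1 lower, beside 5.66% and 16.5% of all genes.

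PSMB10 was measured at 36.1, 36.3 and 32.2 TPM in vector replicates 1 to 3 and at 24.0, 12.8 and 23.9 in ΔNp63α replicates 1 to 3. All 3 ΔNp63α libraries lay below all 3 controls, and ΔNp63α replicate 2 was the lowest by far. The log2 fold was -0.81 (SE 0.22, adjusted p = 0.0232 in limma). The other inducible subunits were not called. PSMB8 was measured at 145, 173 and 129.7 TPM with the vector and 169, 152 and 154 with ΔNp63α (log2 fold 0.09, SE 0.15, adjusted p = 0.709 in limma). PSMB9 was measured at 115, 127 and 103 TPM and 107, 97.3 and 112 (log2 fold -0.12, SE 0.14, adjusted p = 0.585 in limma). Groups of both overlapped. The difference between PSMB10 and either gene was not tested.

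PSMB1, a beta subunit without a cutting site, was measured at 469, 459 and 374 TPM with the vector and 604, 658 and 612 with ΔNp63α. Every ΔNp63α library lay above every control, and the log2 fold was 0.53 (SE 0.14, adjusted p = 0.0188 in limma). The cutting subunits that PSMB8, PSMB9 and PSMB10 replace were not called. PSMB5 was measured at 542, 389 and 303 TPM and 646, 436 and 551 (log2 fold 0.43, SE 0.21, adjusted p = 0.171 in limma), PSMB6 at 496, 419 and 304 and 515, 462 and 472 (log2 fold 0.28, SE 0.17), and PSMB7 at 879.9, 805 and 711 and 1076, 929 and 922 (log2 fold 0.29, SE 0.14). For all 3, vector replicate 3 was the lowest library. PSMB3, the most abundant proteasome gene of this table, was measured at 1415, 1408 and 1123 TPM and 1657, 1614 and 1548, without overlap and not called (log2 fold 0.30, SE 0.14, adjusted p = 0.155 in limma). PSMB4 had the lowest fold of the constitutive beta subunits, 0.09 (SE 0.14).

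In the alpha ring, PSMA3 was measured at 114, 103 and 76.2 TPM with the vector and 123, 180.2 and 148 with ΔNp63α, a log2 fold of 0.62 (SE 0.19, adjusted p = 0.0364 in limma). The groups did not overlap, though vector replicate 1 and ΔNp63α replicate 1 lay close together. PSMA1 was measured at 43.4, 43.6 and 33.0 TPM and 30.6, 37.6 and 29.5 and had the lowest fold of the ring, -0.29 (SE 0.17, adjusted p = 0.264 in limma). Of the 6 ATPases, limma called 0, and 2 had an unadjusted p under 0.05: PSMC1, at 28.5, 18.9 and 16.6 TPM against 33.2, 27.6 and 36.0, and PSMC2, at 58.9, 42.8 and 39.8 against 62.1, 70.5 and 66.4 (adjusted p = 0.0560 and 0.0562 in limma). All 6 had log2 folds above 0, with a median of 0.36, the largest of the classes, and the lowest was that of PSMC5, 0.15 (SE 0.17).

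In the lid, PSMD6 was measured at 13.3, 10.6 and 10.3 TPM with the vector and 16.3, 18.5 and 18.9 with ΔNp63α, without overlap (log2 fold 0.61, SE 0.17, adjusted p = 0.0246 in limma). PSMD12 was measured at 69.8, 55.7 and 51.4 TPM and 69.2, 112 and 94.3 (log2 fold 0.61, SE 0.19, adjusted p = 0.0405 in limma). Here vector replicate 1 lay just above ΔNp63α replicate 1, so the groups overlapped, and ΔNp63α replicates 2 and 3 were the high libraries. The call was lost in 7 of 14 alternatives, which were no filter, no trend, no mitochondrially encoded genes and the removal of vector replicate 2 or 3 or of ΔNp63α replicate 2 or 3, with adjusted p up to 0.147 in limma. PSMD13 had the lowest fold of the non-ATPase subunits, -0.07 (SE 0.15). Of the 8 assembly factors limma called 0, and 2 had an unadjusted p under 0.05, among them PSMD5, at 66.5, 48.0 and 50.6 TPM against 67.8, 81.4 and 74.1 (adjusted p = 0.0780 in limma). POMP was measured at 101, 84.4 and 68.2 TPM and 90.9, 103 and 94.2, with overlap (log2 fold 0.20, SE 0.16).

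Of the activators, PSME3, a nuclear activator that opens the core without ubiquitin or ATP, was measured at 181, 101 and 120.4 TPM with the vector and 232, 213 and 209 with ΔNp63α. The 3 ΔNp63α libraries lay above all controls, of which vector replicate 1 was the highest, and the log2 fold was 0.74 (SE 0.19, adjusted p = 0.0183 in limma), the largest of the 46 genes. PSME1, at 551, 756 and 672 TPM against 597, 749.7 and 606, overlapped, and PSME2, at 167, 181 and 142 against 189, 201 and 187, did not. Neither was called (adjusted p = 0.960 and 0.254 in limma), and PSME4 had the lowest fold of these genes, -0.08 (SE 0.19).

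Vector replicate 3 was the lowest library for 33 of the 46 genes (71.7%), against 15.9% of all genes. Groups did not overlap for 14 genes that lay higher with ΔNp63α (30.4%, against 14.2% of all genes) and for 1 that lay lower (2.17%, against 23.7%). Without vector replicate 3 limma called 0 genes in either direction, beside 3.20% of all genes higher and 8.63% lower, 6 had an unadjusted p under 0.05, and 39 of 46 folds were above 0 with a median of 0.16, beside -0.03 over all genes. Without vector replicate 1, 16 genes were called higher (34.8%, against 10.7% of all genes) and 1 lower (2.17%, against 13.3%). Without vector replicate 2 the counts were 1 and 0, beside 5.36% and 14.5% of all genes. They were 1 and 0 without ΔNp63α replicate 2, beside 4.23% and 11.04%, and 1 and 1 without ΔNp63α replicate 3, beside 3.11% and 9.79%. Median-of-ratios rescaling gave 10 higher and 1 lower, beside 10.5% and 13.03% of all genes. The log2 fold of PSMB10 was -0.52 without ΔNp63α replicate 2 (adjusted p = 0.0622 in limma), and it was also not called without vector replicate 2 or 3 (0.0566 and 0.0514).

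**Figure D3:**
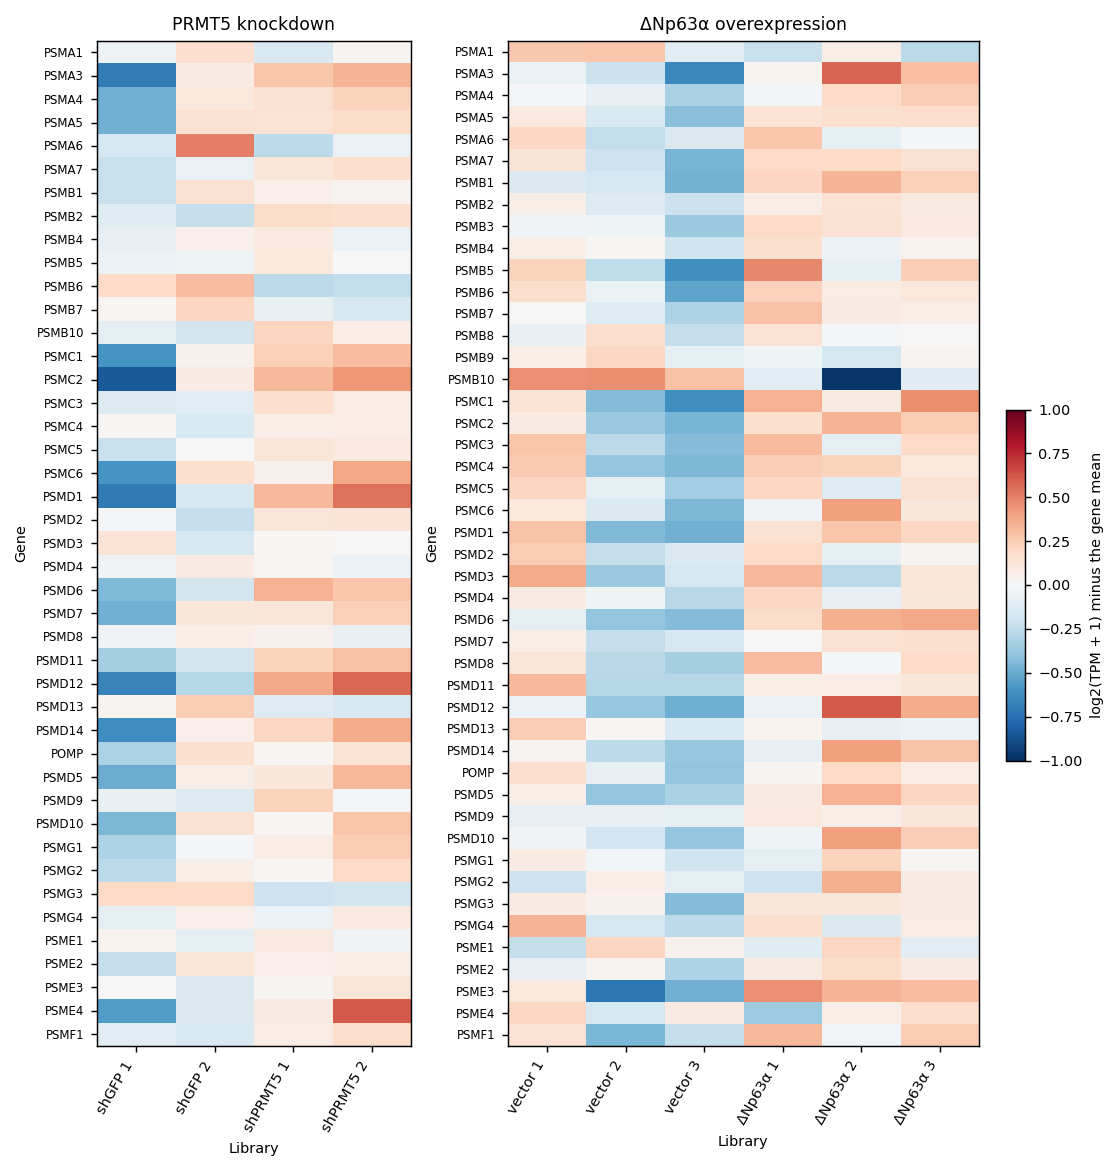
Deviation of log2(TPM + 1) in each library from the mean of the gene over the libraries of its table, one row per tested proteasome gene, with blue below and red above the mean. The columns of shGFP replicate 1 and vector replicate 3 are mostly blue, lowest for 26 of 43 and 33 of 46 genes, and PSMB10 in ΔNp63α replicate 2 is the darkest blue cell.

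The inducible cutting subunits were also set against the constitutive ones they replace, as a ratio of TPM within each library, which does not depend on how libraries are scaled and is given without a test. PSMB10 was 4.10%, 4.51% and 4.54% of PSMB7 in vector replicates 1 to 3 and 2.23%, 1.37% and 2.59% with ΔNp63α. These groups did not overlap, with means of 4.38% ± 0.24 (SD, n = 3) and 2.06% ± 0.62 (SD, n = 3). In the knockdown table PSMB10 was 4.998% and 4.12% of PSMB7 with shGFP and 6.65% and 6.37% with shPRMT5, with means of 4.56% ± 0.62 (SD, n = 2) and 6.51% ± 0.20 (SD, n = 2). The mean ratio was lower with ΔNp63α than with the vector and higher with shPRMT5 than with shGFP. PSMB8 was 38.0% ± 9.8 (SD, n = 3) of PSMB5 with the vector and 29.7% ± 4.6 (SD, n = 3) with ΔNp63α. PSMB9 was 29.1% ± 5.5 (SD, n = 3) of PSMB6 with the vector and 21.8% ± 1.6 (SD, n = 3) with ΔNp63α. Vector replicate 1 lay within the range of the ΔNp63α libraries in both of these ratios, so the groups overlapped.

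**Figure D4:**
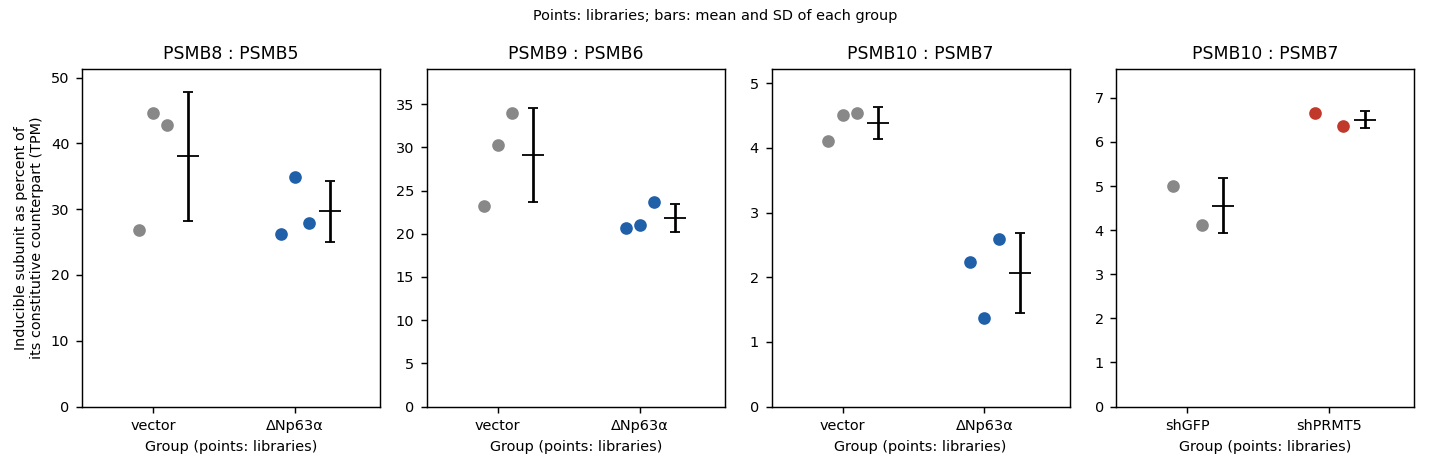
TPM of each inducible cutting subunit as a percent of the constitutive subunit it replaces, with 1 point per library and bars for the mean and SD of each group; the first 3 panels are the overexpression experiment, the fourth is the knockdown, and y axes differ in range. Only the PSMB10 to PSMB7 panels have groups that do not overlap, at means of 4.38% against 2.06% (n = 3 each) and of 4.56% against 6.51% (n = 2 each).

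PSMA2, PSMB3, PSMB8 and PSMB9 were not listed in the knockdown table. Neither table holds a value of 0, and a gene without reads in 1 library may have been left out of its table. PSMB3, a structural subunit of the beta ring, averaged 1461 TPM over the overexpression libraries, the highest of all proteasome genes there, while PSMB8 averaged 154 and PSMB9 110.2. Of the 1336 genes that averaged at least 100 TPM in the overexpression table, 28 (2.10%) were not in the knockdown table, and of 13377 at 1 TPM or more, 443 (3.31%) were not. Unlisted genes lay beside each other. Neighbours were up to 5 protein-coding genes on each side, by gene order in RefSeq, among those averaging at least 1 TPM in the overexpression table. Of 10 neighbours each, 8 around PSMB9, 6 around PSMB8 and 4 around PSMB3 were not in the knockdown table. PSMB8 and PSMB9 were counted for each other. PSMB8 and PSMB9 sit within the MHC class II region of chromosome 6, next to TAP1 and TAP2, which are among those not listed. Around PSMA2 the count was 0 of 10, around PSMB1 2 of 7, around PSMC2 1 of 10, and around every other proteasome gene 0. A gene's absence from the knockdown table therefore gives no level for it in shGFP or shPRMT5 cells.

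PSMA3 and PSMD12 were called higher in both experiments, 2 of the 5 genes higher with shPRMT5 and 2 of the 5 higher with ΔNp63α, and no gene was called in opposite directions. Of the 43 proteasome genes tested in both this was 4.65%, against 1.75% of the 11999 genes tested in both. The call of PSMA3 was lost in 7 of 11 alternatives in the knockdown and 5 of 14 in the overexpression, and that of PSMD12 in 1 and 7. The experiments share no library. For PSMA3 the log2 folds were 0.61 and 0.62, and for PSMD12 0.95 and 0.61. PSMB6 had log2 folds of -0.51 and 0.28, and PSMB10 of 0.28 and -0.81, each called in 1 experiment only, and differences between the experiments were not tested. By class, the median log2 folds with shPRMT5 were 0.31 for the alpha ring, 0.05 for the constitutive beta subunits, 0.33 for the ATPases, 0.36 for the non-ATPase subunits, 0.21 for assembly factors and 0.15 for activators and inhibitor, beside 0.25 over all genes; after median-of-ratios rescaling those of the constitutive beta subunits, assembly factors and activators turned to -0.22, -0.03 and -0.12, beside 0.01, and quantile normalization turned that of the assembly factors to -0.03, beside 0.02. With ΔNp63α they were 0.30, 0.29, 0.36, 0.21, 0.19 and 0.24 in the same order, beside -0.04, and -0.12 for the 3 inducible beta subunits.

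Genes that act on or around the proteasome were read in the same fits. Of 20 tested factors that dock on the proteasome or carry substrates to it, 9 were higher and 0 lower with shPRMT5, 45.0% against 15.1% of all genes. Those with the largest log2 folds were KIAA0368, a proteasome-binding scaffold, at 1.36 (SE 0.24), and the ubiquitin-chain shuttles UBQLN2 at 1.22 (SE 0.22) and UBQLN1 at 1.14 (SE 0.19), followed by the deubiquitinase USP14 at 0.95 (SE 0.21). The count was 5 higher under median-of-ratios rescaling and 7 under quantile normalization, beside 3.80% and 3.17% of all genes. Without shPRMT5 replicate 2 it was 0 in limma, with 6 at an unadjusted p under 0.05, beside 1.36% of all genes called higher, and without shPRMT5 replicate 1 it was 6. With ΔNp63α 1 of the 20 was higher (5.0%, against 7.34% of all genes), the proteasome-binding zinc finger protein ZFAND2A at 0.65 (SE 0.17). Another 1 was lower (5.0%, against 14.1%), UBQLN2 at -0.95 (SE 0.16).

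Of 12 regulators of subunit transcription, 5 were higher and 0 lower with shPRMT5, 41.7% against 15.1% of all genes called higher. These included DDI2, the protease that releases NFE2L1, at a log2 fold of 0.91 (SE 0.32), and NFE2L2 at 0.84 (SE 0.27). DDI2 was near the level needed to be tested, at 1.10 and 0.98 TPM with shGFP and 1.74 and 4.31 with shPRMT5. NFE2L2 was also low, at 3.18 and 4.11 TPM against 6.70 and 7.84. KEAP1, the repressor of NFE2L2, was at 0.78 (SE 0.16), and SEL1L, an adaptor of degradation at the endoplasmic reticulum, at 0.74 (SE 0.26). NFE2L1 itself averaged 247 TPM ± 26 (SD, n = 2) with shGFP and 222 ± 5.3 (SD, n = 2) with shPRMT5 and was not called (adjusted p = 0.500 in limma). Rescaling by median of ratios left 0 of the 12 higher and 2 lower, beside 3.80% and 7.01% of all genes. Quantile normalization left 1 and 1, beside 3.17% and 4.47%. Of the 12 log2 folds 9 were above 0 in the main fit, after median-of-ratios rescaling and after quantile normalization. Over all 12635 genes, 9087, 6447 and 6615 were above 0 in that order. Without shPRMT5 replicate 2 limma called 0 of the 12, with 3 at an unadjusted p under 0.05, and without shPRMT5 replicate 1 or shGFP replicate 1 it called 2 or 3 higher. With ΔNp63α 0 were higher and 2 lower (16.7%, against 14.1% of all genes), the small MAF protein MAFF at -1.15 (SE 0.20) and the ubiquitin ligase SYVN1 at -0.56 (SE 0.18), and NFE2L1 had a log2 fold of -0.53 (SE 0.20, adjusted p = 0.0752 in limma).

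Of 16 tested partners of the immunoproteasome in interferon signalling and MHC class I display, 9 were lower and 0 higher with ΔNp63α, 56.3% against 14.1% of all genes. Among these were TAPBP, which edits the peptide on MHC class I, at a log2 fold of -1.02 (SE 0.20), the heavy chain HLA-C at -0.95 (SE 0.15), and the trimming peptidase ERAP1 at -0.82 (SE 0.17). The summed level of the listed partners was 5586 to 6641 TPM with the vector and 4113 to 4294 with ΔNp63α, without overlap. The count was 9 lower under median-of-ratios rescaling and 10 under quantile normalization, beside 13.03% and 12.4% of all genes. Without any 1 library it was 6 to 10 lower, beside 8.63% to 14.5% of all genes. With shPRMT5, 4 of 13 tested partners were higher and 0 lower (NLRC5, ERAP1, PDIA3 and CALR), 30.8% against 15.1% of all genes. The higher count was 0 under median-of-ratios rescaling and 1 under quantile normalization, beside 3.80% and 3.17% of all genes. It was also 0 in limma without shPRMT5 replicate 1 or 2, with 5 and 3 at an unadjusted p under 0.05. Of the 6 ubiquitin and ubiquitin-activating genes, 1 was higher with shPRMT5 (16.7%, against 15.1% of all genes), UBA1 at 0.53 (SE 0.15). With ΔNp63α limma called 0 of the 6, beside 7.34% of all genes higher and 14.1% lower, and 3 had an unadjusted p under 0.05.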

How the data were processed

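The values analysed were TPM as deposited by the authors, with 4 libraries in the knockdown table and 6 in that of the overexpression. The submitters' processing notes name Bowtie, FastQC, featureCounts and DESeq2 1.24.0, and hg19 and GRCh37 as builds; the tool behind the TPM was not given in the sources used here. Groups and replicate numbers came from the sample titles. A column of means in the knockdown table (1 column) was not used. Members and gene lists were chosen with earlier results of these data known.

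Each table was fitted alone with limma 3.58.1 in R 4.3.3 on log2(TPM + 1), for genes averaging at least 1 TPM, with an intensity trend in eBayes. Tests were two-sided, adjusted by Benjamini-Hochberg over all genes tested, and a gene was called under 0.05. A fold on this scale understates the change of low genes. The step was tested on simulated data. TPM keeps no absolute depth, so precision rests on the replicates alone. In full were named the inducible and cutting beta subunits, POMP, PSME1 and PSME2, called genes, genes of 1 table and the highest and lowest fold of each class; other genes given were chosen after their values were seen. Genes were matched to names and order through RefSeq of assembly GRCh38.p14 (47 of 47 IDs), and coordinates are of that build only. Alternatives numbered 11 in the knockdown and 14 in the overexpression. Python 3.11.15 and Matplotlib 3.10.9 were used for tables and figures.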

Additional observations from a re-analysis of the deposited data

How the results depend on the processing

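The counts of proteasome genes called higher or lower moved with the processing, and no named gene called by limma changed direction under the alternatives run; the cause of each shift was not tested. In the knockdown, the higher count was 1 with no filter, median-of-ratios rescaling, quantile normalization or no trend. The shares of all genes called higher were 4.66%, 3.80%, 3.17% and 7.52% in that order. The higher count was 8 when genes had to average 5 TPM (19.0%, against 22.5% of all genes). The lower count was 2 with that filter, 3 after median-of-ratios rescaling and 0 with no trend, beside 4.98%, 7.01% and 1.61% of all genes. With no trend, 10 genes had an unadjusted limma p under 0.05. In the overexpression, the higher count was 10 after median-of-ratios rescaling, 9 after quantile normalization and 3 with no trend, beside 10.5%, 11.4% and 6.43% of all genes. Leaving out each library in turn, which assumes that a lone library varies like the other group, gave 0 to 23 higher and 0 to 4 lower in the knockdown, and 0 to 16 higher and 0 to 1 lower in the overexpression. Where these counts were 0, 4 to 11 genes had an unadjusted limma p under 0.05.

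Median log2 folds of the classes, less the median of all genes, moved in the knockdown under quantile normalization to 0.089 for constitutive beta, 0.27 for non-ATPase and 0.079 for activator and inhibitor genes. They moved to 0.23 for alpha (from 0.062) and 0.21 for ATPase (from 0.087). These values of non-ATPase, alpha and ATPase genes lay within the ranges that leaving out a library gave. In the overexpression, quantile normalization gave 0.11 for constitutive beta. Leaving out a library in the knockdown gave -0.19 to 0.26 for alpha, -0.31 to -0.090 for constitutive beta, -0.014 to 0.31 for ATPase, 0.0023 to 0.34 for non-ATPase, -0.22 to 0.13 for assembly and -0.11 to -0.018 for activator and inhibitor genes, and in the overexpression 0.17 to 0.33 for the last. The labels do not say whether same-numbered libraries were paired. Deviations of same-numbered libraries correlated at 0.324, 0.231 and 0.0858 in the overexpression, against -0.332 to 0.137 for different numbers. In the knockdown the values were 0.0866 and -0.0866, which mirror each other with 2 libraries per group. Pairing was not tested. With the replicate block, 9 genes were higher (20.9%, against 22.6% of all genes) and 2 lower (4.65%, against 4.99%) in the knockdown. In the overexpression the block gave 10 higher (21.7%, against 11.01% of all genes) and 1 lower (2.17%, against 18.1%).

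Named genes that were not called changed sign in 9 gene and setting pairs of the knockdown and 14 of the overexpression. In the knockdown, median-of-ratios rescaling turned the log2 folds of POMP to -0.11, PSMB5 to -0.16, PSMC4 to -0.13, PSME1 to -0.21 and PSME2 to -0.16, and leaving out each library gave -0.079 to 0.39 for POMP, -0.067 to 0.30 for PSME2, -0.0038 to 0.13 for PSME1 and -0.66 to 0.013 for PSMA6. In the overexpression, PSME1 turned to 0.055 after median-of-ratios rescaling, and quantile normalization turned PSMB4 to -0.075 and PSME4 to 0.013. Leaving out each library there gave -0.14 to 0.089 for PSME1, -0.18 to 0.081 for PSME4, -0.16 to 0.033 for PSMD13, -0.0038 to 0.20 for PSMB8 and -0.050 to 0.25 for PSMG4.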
